A study of Mus musculus with 20 samples.

Results

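Genes that carry, import, store, export and sense iron were described in granulosa cells (GCs) of the mouse ovary, 10 of the 55487 gene identifiers counted in each sample. They are the serum iron carrier Trf, the uptake genes Tfrc, Cybrd1 and Slc11a2, the exporter Slc40a1, the ferritin subunits Fth1 and Ftl1, the heme-degrading enzyme Hmox1 and the iron sensors Aco1 and Ireb2, each found by its gene symbol. Trf and Cybrd1 were selected on their measured pattern in these same samples, that is, on their normalized counts in the 4 groups. Their values are therefore given as a description without a test, and tests are given for the other 8 genes. The GCs came from 20 female mice of the Dummerstorf lines, 5 mice in each of the groups ctrl estrus, FL1 estrus, ctrl diestrus and FL1 diestrus. FL1 mice were bred over many generations for large and heavy litters, ctrl mice are the unselected line, and no mouse carried a transgene or received an agent. All were young adult females, the stage was read from vaginal smears, and mural GCs were taken from several of the largest follicles of a mouse, opened so as to leave out the oocyte and its cumulus cells, so that each sample is a pool of follicles of 1 mouse. Each line is a single breeding population, so selection and other differences between these populations cannot be told apart.

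In the circulation iron travels bound to transferrin, the product of Trf, which binds the transferrin receptor Tfrc and is taken up into endosomes, where the iron is reduced and passed to the cytosol by the divalent metal transporter Slc11a2. Cybrd1 is a ferric reductase best known from the duodenum, ferritin made of Fth1 and Ftl1 subunits stores iron, ferroportin (Slc40a1) is the iron exporter of mammalian cells, and Hmox1 sets iron free from heme. Aco1 and Ireb2 encode the iron regulatory proteins, which bind a hairpin called the iron responsive element (IRE) when iron is scarce. Bound to an IRE in a 5′ untranslated region (UTR) they block translation, and bound to IREs in a 3′ UTR they protect the mRNA from decay. The liver is the main source of serum transferrin, and mRNA of Trf has long been known in other tissues too.

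The IREs of the members are shown because they are the sequence on which this regulation acts, and because an mRNA level reads the 3′ kind but not the block of translation through the 5′ kind. UTRs of GENCODE transcripts (GRCm38) were searched on the sense strand for a C, any 5 bases, CAGTG, any base and 5 bases that pair with the 5 bases before the loop (Watson-Crick or G-U). Of the 10 members 4 held such elements, 7 in all, 1 each in the 5′ UTR of Slc40a1, Fth1 and Ftl1 and 4 in the 3′ UTR of Tfrc. Capitals mark the unpaired C and the 6 loop bases, in windows of 30 bases written 5′ to 3′:
Fth1, chr19:9982731-9982760, plus strand: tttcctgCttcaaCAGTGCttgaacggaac
Ftl1, chr7:45459779-45459808, minus strand: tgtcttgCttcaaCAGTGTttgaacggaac
Slc40a1, chr1:45925465-45925494, minus strand: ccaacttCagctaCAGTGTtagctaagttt
Tfrc element 1, chr16:32631218-32631247, plus strand: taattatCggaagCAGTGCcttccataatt
Tfrc element 2, chr16:32631597-32631626, plus strand: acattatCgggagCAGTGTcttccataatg
Tfrc element 3, chr16:32631662-32631691, plus strand: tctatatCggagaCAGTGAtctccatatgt
Tfrc element 4, chr16:32631709-32631738, plus strand: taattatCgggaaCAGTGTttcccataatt

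Across all protein-coding genes the element was rare, with a match in the 5′ UTR of 28 of 20831 genes (0.134%) and in the 3′ UTR of 127 of 20914 genes (0.607%), whose longest UTRs had a median of 200 and 956 nt. The UTRs that held a match here were 224 nt (Fth1), 253 nt (Ftl1), 319 nt (Slc40a1) and 2458 nt (Tfrc). No match was found in the UTRs of Trf, Cybrd1, Slc11a2, Hmox1, Aco1 and Ireb2, which says only that this pattern of letters is not in their annotated UTRs.

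**Figure D1:**
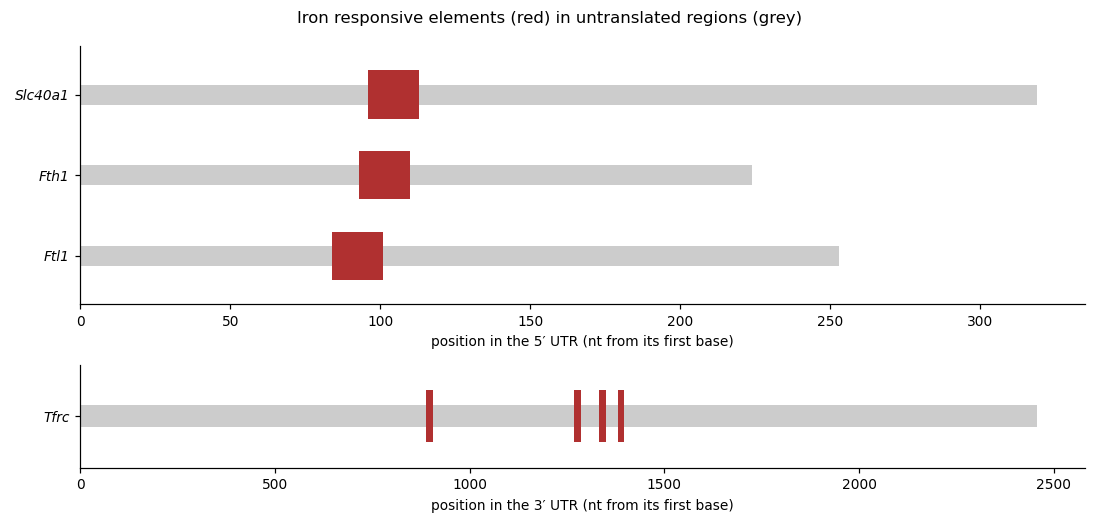
Position of the iron responsive elements (red, 17 nt) in the 5′ UTRs of Slc40a1, Fth1 and Ftl1 and in the 3′ UTR of Tfrc (grey, to scale within each panel), in nt from the first base of the UTR. The 5′ elements began at base 84 to 96, and the 4 elements of Tfrc began at bases 889, 1268, 1333 and 1380 of 2458.

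The libraries were made with a 3′ tag method, in which each mRNA gives about 1 fragment near its 3′ end, so levels of genes are compared without a correction for length. Between 5446576 and 8257041 reads per sample fell on genes, and 23.2% to 32.8% of all reads matched several places and were not counted for any gene. Levels are given as CPM, a gene's count as a share of the normalized library size, scaled so that all libraries have the same size. All 10 granulosa cell markers were detected in every group and summed to 7706 to 23556 CPM per sample. Markers of theca and stroma, macrophages, red cells, endothelium, oocyte and luteal cells were also present. Correlations between libraries ranged from 0.758 to 0.889 over log2 CPM, and whether a single library stood apart was not tested.

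Trf (ENSMUSG00000032554, chr9:103204001-103230444, minus strand, GRCm38) had lower levels in diestrus than in estrus in both lines. In ctrl mice in estrus the 5 samples held 19.5, 95.7, 49.6, 108.7 and 98.1 CPM, and in diestrus they held 2.50, 12.0, 10.8, 0.363 and 10.3 CPM. In FL1 mice the estrus samples held 58.7, 54.3, 76.4, 81.8 and 51.6 CPM and the diestrus samples 16.7, 9.32, 21.2, 13.8 and 11.3 CPM. In both lines every diestrus sample lay below every estrus sample, which 3.66% of tested genes also showed in one direction or the other in ctrl mice and 2.42% in FL1 mice, although the highest FL1 diestrus sample at 21.2 CPM passed the lowest ctrl estrus sample at 19.5 CPM. The mean fell from 74.3 ± 38.1 to 7.20 ± 5.36 CPM in ctrl mice (SD, n = 5), a ratio of 0.0969, and from 64.5 ± 13.7 to 14.5 ± 4.69 CPM in FL1 mice, a ratio of 0.224. The fitted log2 differences of diestrus against estrus were -3.35 in ctrl mice and -2.17 in FL1 mice. Between the lines the groups overlapped in both stages, with fitted log2 differences of FL1 against ctrl of -0.20 in estrus and 1.01 in diestrus.

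The ctrl diestrus samples of 0.363 and 2.50 CPM rested on 2 and 14 counts, and the largest value, in ctrl estrus, on 738 counts. Of the 6 transcripts of Trf compared with all others, Trf-203 matched 282 other genes in its last 500 nt at 90% identity or more, and the other 5, Trf-201 among them, matched none. Reads from the end of Trf-203 may therefore have been left uncounted as matching several places.

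**Figure D2:**
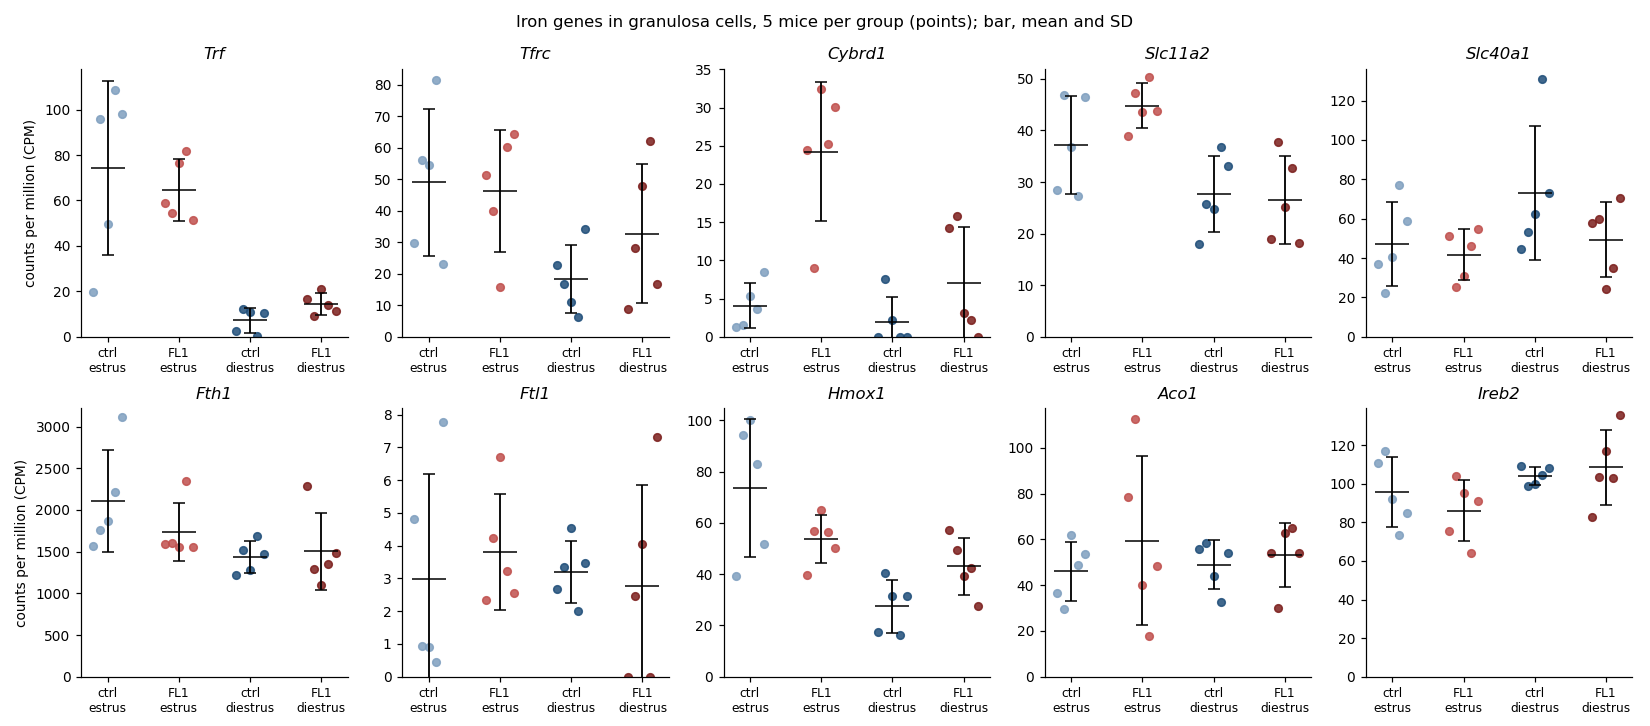
CPM of the 10 iron genes in the 4 groups, 1 point per mouse, with the mean and SD of 5 mice in black and linear axes from 0 (bars that would pass below 0 end at the axis). Trf lay at 9.32 to 21.2 CPM in FL1 diestrus against 51.6 to 81.8 CPM in FL1 estrus, and Cybrd1 at 8.99 to 32.4 CPM in FL1 estrus against 1.31 to 8.48 CPM in ctrl estrus.

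The summed macrophage markers moved with Trf over the 20 samples, but not each marker did. All 10 of them had counts in each group, and their summed level was 25.1 to 50.4 CPM in ctrl estrus, 38.1 to 65.8 CPM in FL1 estrus, 4.64 to 17.3 CPM in ctrl diestrus and 14.6 to 58.2 CPM in FL1 diestrus. In ctrl mice the ranges of the stages were apart, as for Trf, whereas in FL1 mice they overlapped for the markers and not for Trf. From estrus to diestrus in FL1 mice mean Ptprc (2.03 to 7.13 CPM), Adgre1 (2.28 to 3.08 CPM) and Cd68 (2.45 to 2.93 CPM) rose, and the other markers of the list fell. In ctrl mice Cd68 (0.031 to 0.481 CPM), Fcgr1 (0.118 to 0.614 CPM) and, slightly, Ptprc rose, and the others fell. Over the 20 samples, log2 Trf and the log2 sum of these markers had a Pearson correlation of 0.70, and of 0.322 once the mean of each group was removed. In the same order the values were 0.597 and 0.240 for markers of theca and stroma, 0.491 and 0.060 for endothelium, 0.435 and 0.154 for red cells, 0.430 and 0.379 for luteal cells, and -0.544 and 0.127 for granulosa cells. Within groups the luteal sum was thus at least as close to Trf as the macrophage sum. All these points share their library and its depth. The part of these cells in the level of Trf was not tested, and in bulk samples fewer cells of a type and less RNA per cell cannot be told apart. Of 7 hepatocyte markers, Ttr and Fgb had no count in any sample and Alb was at 0 in all ctrl samples and at most 1.09 CPM in 1 group, while Apoa1 ranged from 64.4 to 189 CPM.

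Among 14937 other genes, those whose log2 CPM followed Trf most closely over the 20 samples were C1qc (Pearson r = 0.882), a complement gene that is on the macrophage list, Aldh1a2 (0.869), a retinaldehyde dehydrogenase, Axl (0.866), a receptor tyrosine kinase, Ctsb (0.863), a lysosomal protease, and Tshz2 (0.854), a zinc finger gene. With the group means removed their correlations with Trf ranged from 0.562 for Axl to 0.822 for Tshz2. Among the members themselves Trf was closest to Hmox1, with r = 0.849 over all samples and 0.664 with the group means removed.

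**Figure D3:**
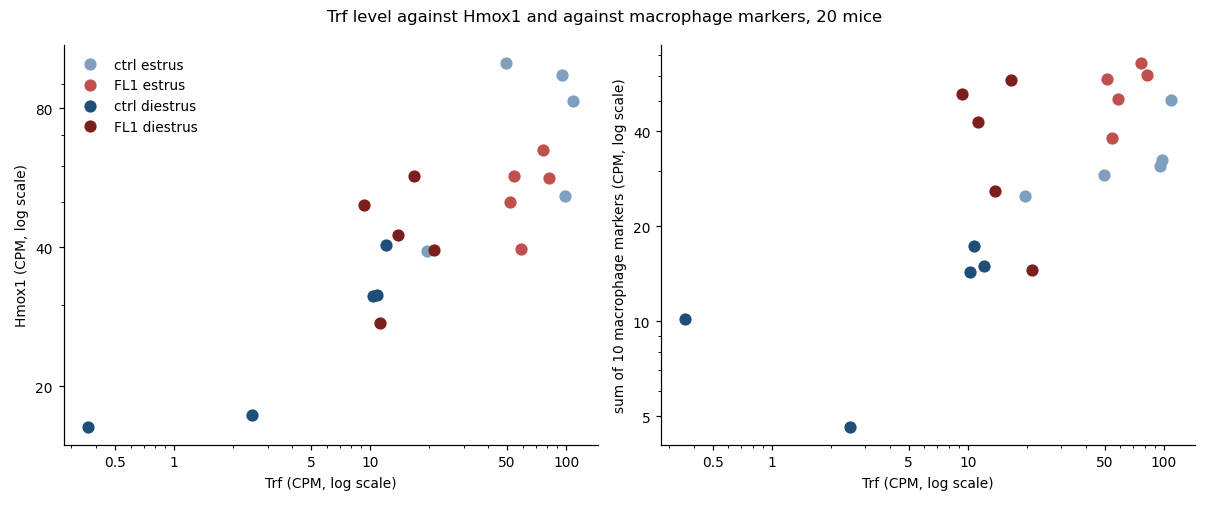
Trf in CPM against Hmox1 in CPM (left) and against the summed CPM of 10 macrophage markers (right), 1 point per mouse, all axes logarithmic. Across all 20 mice the correlations of log2 values were 0.849 and 0.70, and the ctrl diestrus mice lay at the lower left in both.

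Cybrd1 (ENSMUSG00000027015, chr2:71117923-71142926, plus strand) had higher levels in FL1 than in ctrl mice in estrus. In ctrl estrus the samples held 1.31, 1.55, 5.38, 3.68 and 8.48 CPM, and in FL1 estrus 24.5, 8.99, 32.4, 25.3 and 30.0 CPM. Every FL1 sample lay above every ctrl sample in estrus, which 3.55% of tested genes also showed in one direction or the other, with means of 24.2 ± 9.14 and 4.08 ± 2.97 CPM (SD, n = 5), a ratio of 5.94 and a fitted log2 difference of 2.57. The nearest samples of the 2 lines, 8.99 and 8.48 CPM, were close. In diestrus ctrl samples held 0, 7.63, 2.14, 0 and 0 CPM and FL1 samples 14.2, 15.8, 3.08, 2.22 and 0 CPM, so that the lines overlapped. A count of 0 allows a level of up to 0.401 to 0.545 CPM in these libraries (3 counts, counting error only). Cybrd1 rested on 1244 counts over all samples, and its SD exceeded its mean in both diestrus groups. The fitted log2 difference of diestrus against estrus was -1.05 in ctrl mice and -1.78 in FL1 mice, and -3.66 and -2.57 with the replicate number as a block. Leaving out 1 sample gave -2.87 to -0.61 in ctrl mice, with -2.87 reached without ctrl diestrus 2, and -2.31 to -1.46 in FL1 mice.

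Markers of other cells also moved with Cybrd1. The luteal markers summed to 3149 to 6910 CPM in ctrl estrus and 11067 to 15714 CPM in FL1 estrus, and 4 of the 8 (Akr1c18, Lhcgr, Star and Prlr) were higher in FL1 mice in estrus by edgeR. Macrophage markers lay at 25.1 to 50.4 and 38.1 to 65.8 CPM in the same 2 groups and overlapped. Over the 20 samples log2 Cybrd1 correlated with the log2 sums at 0.732 (macrophage), 0.706 (theca and stroma), 0.683 (endothelium), 0.654 (luteal) and 0.607 (red cell), and with group means removed at 0.426, 0.595, 0.474, 0.320 and 0.458. Their part in the level of Cybrd1 was not tested. The genes closest to Cybrd1 over the 20 samples were Lrrn4 (r = 0.894, a leucine rich repeat protein), Cldn15 (0.861, a claudin of tight junctions), Pik3c2g (0.856, a class II phosphoinositide 3-kinase), Avpi1 (0.842) and Arpc1b (0.827, a subunit of the Arp2/3 complex). With group means removed these correlations were 0.634 to 0.833.

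The receptor for transferrin, Tfrc, spread widely between mice of 1 group. It was at 29.9, 56.3, 54.6, 81.4 and 23.0 CPM in ctrl estrus and at 22.8, 16.9, 11.2, 6.36 and 34.2 CPM in ctrl diestrus. In ctrl mice 3 of the 5 estrus samples lay above all diestrus samples, and the groups overlapped. The means were 49.0 ± 23.3 and 18.3 ± 10.8 CPM (SD, n = 5), the log2 fold change of diestrus against estrus was -1.43 (SE 0.43), and the difference did not pass the test (adjusted p = 0.138, edgeR quasi-likelihood test with Benjamini-Hochberg adjustment over all genes tested, as in all tests named here). Without a filter on low counts the adjusted p was 0.0179. In FL1 mice the samples held 51.5, 39.8, 15.9, 60.2 and 64.3 CPM in estrus and 8.73, 28.2, 47.8, 62.2 and 16.7 CPM in diestrus. These values overlapped over most of their range, with a log2 fold change of -0.51 (SE 0.45, adjusted p = 0.813).

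Slc11a2, which moves iron out of the endosome, held 38.9, 47.3, 43.6, 50.4 and 43.8 CPM in FL1 estrus and 19.0, 37.7, 25.1, 32.7 and 18.3 CPM in FL1 diestrus. All FL1 diestrus samples lay below all FL1 estrus samples, beside the 2.42% of tested genes given above. The fitted log2 fold change was -0.76 (SE 0.27), and it did not pass the test (adjusted p = 0.312, edgeR). In ctrl mice the samples of 28.4, 47.0, 36.8, 27.2 and 46.6 CPM in estrus and 18.0, 25.7, 24.7, 36.7 and 33.0 CPM in diestrus overlapped (log2 fold change -0.44, SE 0.29, adjusted p = 0.646). A gene model on the opposite strand, Gm5475, overlaps Slc11a2 and had 95 counts in all samples against 4575.

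Slc40a1, the exporter, ranged over 22.2 to 77.3 CPM in ctrl estrus, 25.5 to 54.8 CPM in FL1 estrus, 44.8 to 130.8 CPM in ctrl diestrus and 24.1 to 70.6 CPM in FL1 diestrus. All 4 ranges overlapped. The log2 fold change of diestrus against estrus was 0.62 in ctrl mice (SE 0.34, adjusted p = 0.535, edgeR) and 0.23 in FL1 mice (SE 0.31, adjusted p = 0.901), and that of FL1 against ctrl was -0.18 in estrus and -0.55 in diestrus, none past the threshold.

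Fth1, the heavy ferritin subunit, was the most strongly expressed member, at 1695 CPM on average and above 99.8% of the tested genes. It ranged over 1570 to 3114 CPM in ctrl estrus, 1558 to 2350 CPM in FL1 estrus, 1218 to 1683 CPM in ctrl diestrus and 1104 to 2290 CPM in FL1 diestrus. The means were 2106 ± 611, 1734 ± 345, 1435 ± 187 and 1505 ± 460 CPM (SD, n = 5), and the groups overlapped in each comparison. The log2 fold change of diestrus against estrus in ctrl mice was -0.56 (SE 0.19, unadjusted p = 0.0105, adjusted p = 0.208, edgeR).

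Ftl1, the light subunit, counted only 422 reads over the 20 samples, between 0 and 7.79 CPM. Its last 500 nt matched 21 other genes at 90% identity or more, 11 of them miRNA models and 9 processed pseudogenes, and 9 of the 21 had counts, with the highest in Ftl1-ps1 (61 counts), Ftl1-ps2 (56) and Gm5213 (26). These 9 held 206 counts, 32.8% of the pool, and reads that fit several of the loci were not counted at all. Among the miRNA models, Gm22133 overlaps Ftl1 itself on the same strand and had 0 counts, so it is not a copy elsewhere. How many uncounted reads belong to Ftl1 was not tested, so its level is uncertain and no order of the 2 subunits is read from it. Fth1 had 1 such copy (Gm6977, 0.0464% of the pool). Summed with their copies, FL1 and ctrl differed by -0.26 for Fth1 in estrus (exact permutation test of mean log2 CPM, two-sided, p = 0.230, n = 5 per group), by 0.03 in diestrus (exact p = 0.897), and for Ftl1 by 0.10 (exact p = 0.857) and -0.55 (exact p = 0.460). The smallest p this design allows is 0.00794.

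Hmox1, heme oxygenase 1 (ENSMUSG00000005413, chr8:75093621-75100589, plus strand), was the only tested member to pass the threshold in any of the 6 comparisons. The ctrl samples held 39.2, 94.3, 99.9, 82.9 and 51.6 CPM in estrus and 17.3, 40.4, 31.5, 16.4 and 31.4 CPM in diestrus. A single diestrus sample, at 40.4 CPM, reached above the lowest estrus sample of 39.2 CPM. Hmox1 was weaker expressed in diestrus, with means of 73.6 ± 26.8 and 27.4 ± 10.3 CPM (SD, n = 5), a ratio of 0.372, and a log2 fold change of -1.43 (SE 0.32, adjusted p = 0.0323, edgeR). Leaving out 1 sample at a time kept the log2 fold change between -1.60 and -1.29, but the adjusted p passed 0.05 in 7 of the 10 cases (up to 0.109), namely without ctrl estrus 2, 3 or 4 or without ctrl diestrus 1, 3, 4 or 5.

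In FL1 mice Hmox1 held 39.7, 56.9, 64.8, 56.6 and 50.2 CPM in estrus and 57.1, 49.5, 39.4, 42.4 and 27.5 CPM in diestrus. The 2 sets overlapped, and the log2 fold change of -0.32 (SE 0.25) did not pass the test (adjusted p = 0.780, edgeR). The difference between the lines in the change from estrus to diestrus was 1.11 on the log2 scale (SE 0.41, unadjusted p = 0.0111) and did not pass either (adjusted p = 0.976). FL1 against ctrl gave -0.46 in estrus (SE 0.26, adjusted p = 0.575) and 0.66 in diestrus (SE 0.30, adjusted p = 0.879). The summed macrophage markers ranged over 25.1 to 50.4 CPM in ctrl estrus and 4.64 to 17.3 CPM in ctrl diestrus, and those of theca and stroma over 631 to 1613 and 262 to 1106 CPM. The theca and stroma sum hides opposite changes, with 1 gene of its list called higher and 1 called lower in ctrl diestrus (edgeR). Mean Cyp17a1 rose from 10.6 CPM in ctrl estrus to 95.4 CPM in ctrl diestrus. The means of the other genes of this list with counts in ctrl estrus fell. Red cell markers, led by the beta globin Hbb-bs, lay at 285 to 670 and 42.5 to 326 CPM. Log2 Hmox1 correlated with the sums of macrophage, theca and stroma, and red cell markers at 0.674, 0.655 and 0.487 over 20 samples, and at 0.461, 0.509 and 0.290 with group means removed. In the same order the values were -0.573 and -0.255 for granulosa cells, 0.501 and 0.021 for hepatocytes, 0.466 and 0.126 for endothelium, and 0.209 and 0.166 for luteal cells. Granulosa markers summed to 11185 to 14551 CPM in ctrl estrus and 15389 to 22218 CPM in ctrl diestrus. The part of these cells in the level of Hmox1 was not tested. The genes closest to Hmox1 were Axl (0.866), Trf (0.849), Angptl4 (0.834), Frmd4b (0.827) and Gstt3 (0.826).

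No difference of the iron sensors passed the test. Ireb2 was at 73.2 to 117 CPM in ctrl estrus, 64.3 to 104.2 CPM in FL1 estrus, 98.8 to 109.4 CPM in ctrl diestrus and 82.9 to 135 CPM in FL1 diestrus. Its log2 fold changes lay between -0.15 (FL1 against ctrl in estrus) and 0.32 (diestrus against estrus in FL1, SE 0.21, adjusted p = 0.711, edgeR). Aco1, whose protein is a cytosolic aconitase when it holds an iron-sulfur cluster and an IRE-binding protein without it, ranged over 29.8 to 61.8, 17.7 to 112.5, 32.7 to 58.5 and 30.0 to 65.1 CPM in the same order of groups. Its widest spread was in FL1 estrus (SD 36.9 CPM around a mean of 59.4 CPM), and its log2 fold changes of -0.17 to 0.37 did not pass the test.

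Counted over the 8 tested members, none was called between the lines in estrus, in diestrus or over both stages, where 0.769%, 0.248% and 1.17% of all tested genes were called. In the stage comparisons 1 of 8 was called in ctrl mice, against 1.36% of 12850 genes, and none in FL1 mice, against 0.221% of 13114 genes. No member was called for the interaction of line and stage, and neither was any of 14938 genes (0.00%, edgeR), of which 710 (4.75%) had an unadjusted p under 0.05, among them 1 member, while DESeq2 called 1 gene and edgeR without a filter on low counts 6. At an unadjusted p under 0.05 the members numbered 0, 1 and 0 between the lines and 3 and 1 between the stages, where 10.7%, 5.56%, 11.3%, 11.8% and 9.48% of all tested genes had such a p. The median log2 fold change over the 8 members was -0.12, 0.07, 0.08, -0.18 and -0.27 in these 5 comparisons, beside medians of 0.00 to 0.01 over all genes tested. Groups that did not overlap were found for Slc11a2 alone of the 8, in FL1 mice between stages. Over all genes 3.55% (line in estrus), 1.59% (line in diestrus), 3.66% (stage in ctrl) and 2.42% (stage in FL1) had groups that did not overlap. The comparisons share samples, so their counts are not independent.

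**Figure D4:**
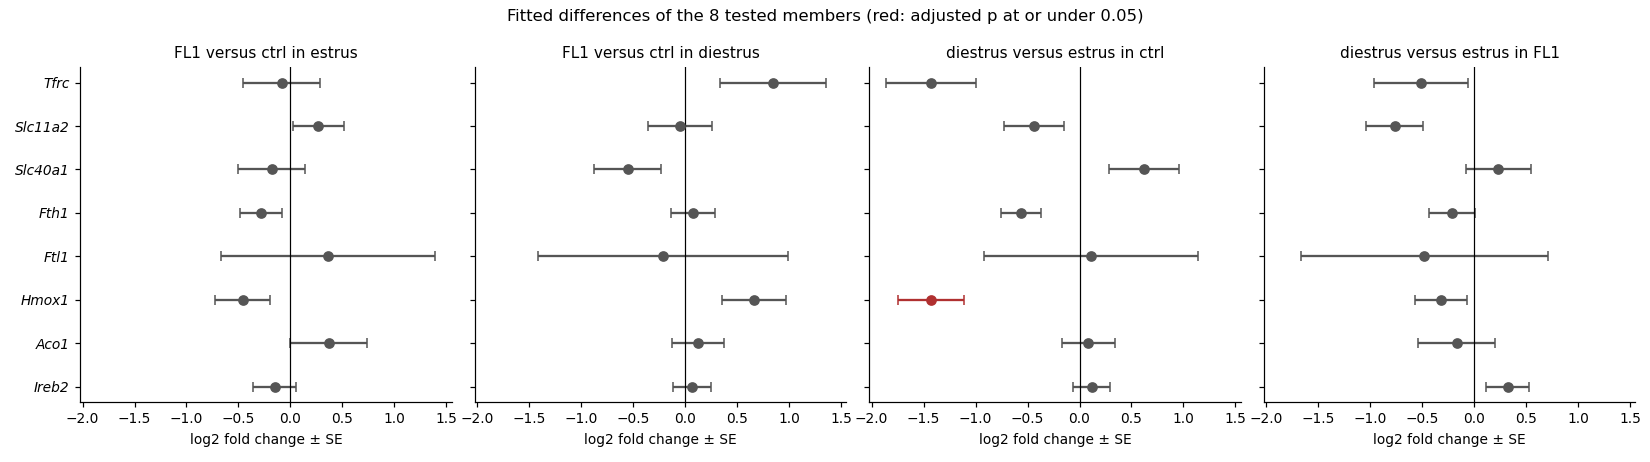
Log2 fold change with its standard error for the 8 tested members in the 4 comparisons of 5 against 5 mice, from edgeR. The one red point is Hmox1 in ctrl mice (-1.43), and the widest bars are those of Ftl1 (SE 1.03 to 1.19 in 3 comparisons and 1.204 in diestrus between the lines).

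The wider iron network was read from 5 lists of 89 other genes, all present in the annotation, of which 73 to 76 were tested in a comparison. Between the lines in estrus 1 of 76 was called, none of 73 in diestrus and 1 of 75 over both stages. Between the stages 2 of 75 were called in ctrl mice and none of 73 in FL1 mice, and none of 76 for the interaction. The shares called over all genes were 0.769%, 0.248%, 1.17%, 1.36%, 0.221% and 0.00% in this order, so these counts are near the background and nothing is read from them about the lists. At an unadjusted p under 0.05 there were 11, 5, 13, 17, 11 and 6 list genes, beside 10.7%, 5.56%, 11.3%, 11.8%, 9.48% and 4.75% of all genes.

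In ctrl mice Steap3, the ferrireductase that acts on transferrin iron in the endosome, was weaker expressed in diestrus, at 52.5 ± 13.9 CPM against 120.9 ± 35.5 CPM in estrus (SD, n = 5, log2 fold change -1.21, SE 0.26, adjusted p = 0.0273, edgeR). Alad, the second enzyme of heme synthesis, was weaker expressed too, at 52.6 ± 16.8 against 120.6 ± 39.4 CPM (log2 fold change -1.21, SE 0.27, adjusted p = 0.0315). For both genes every diestrus sample lay below every estrus sample, with the highest diestrus values of 61.7 and 70.2 CPM and the lowest estrus values of 67.1 and 78.0 CPM. Such a separation in one direction or the other was found for 3.66% of tested genes. Both genes are named for their call in these same samples, so it adds nothing to the call. Together with Hmox1 these were the called iron genes of the stage comparison in ctrl mice, and all were lower in diestrus. Over all genes tested there, 0.786% were called higher in diestrus and 0.576% lower. With so few called iron genes, nothing is read from their shared direction. In FL1 mice Steap3 had a log2 fold change of 0.42 (SE 0.35) and Alad of -0.26 (SE 0.23), not past the threshold. The call of Steap3 was lost without 5 of the 10 samples (ctrl estrus 2, 3 and 4, ctrl diestrus 3 and 5) and that of Alad without 6 (ctrl estrus 1, 3 and 4, ctrl diestrus 1, 4 and 5), with adjusted p up to 0.0822 and 0.106. In edgeR the call of Steap3 was also lost with all 20 samples in 1 fit (adjusted p = 0.0665) and with the replicate number as a block (0.0757), and that of Alad with the block (0.0520). The sum of macrophage markers given for Hmox1 was lower in diestrus in ctrl mice too. That of theca and stroma markers overlapped between the stages, with genes of its list going both ways. The relation of these sums to Steap3 and Alad was not computed, and their part was not tested.

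Between the lines in estrus Fdx1 was stronger expressed in FL1 mice. It is on the iron-sulfur cluster list and encodes a ferredoxin that passes electrons to mitochondrial steroid hydroxylases. Its level was 492 to 2467 CPM in FL1 mice and 174 to 414 CPM in ctrl mice, a log2 fold change of 1.72 (SE 0.37, adjusted p = 0.0327, edgeR). The groups did not overlap, as for 3.55% of tested genes in one direction or the other. The luteal marker sums given above for estrus were higher in FL1 mice too, and their part in the level of Fdx1 was not tested. The call was lost without ctrl estrus 1, 2, 3 or 4 or FL1 estrus 1 (adjusted p up to 0.0828), and the log2 fold change was 1.09 without FL1 estrus 2, the lowest of the 10 fits that left out 1 sample, and at most 1.90. In edgeR it was also lost under robust estimation (adjusted p = 0.110) and with the replicate number as a block (log2 fold change 1.49, adjusted p = 0.0772). Hif1a, an oxygen-regulated transcription factor with many iron gene targets, was stronger expressed in FL1 mice over both stages, by 0.57 on the log2 scale (SE 0.13, adjusted p = 0.0176), and its call held in all 20 fits that left out 1 sample. Its means were 143 ± 28.4 and 230 ± 45.7 CPM in ctrl and FL1 mice in estrus and 183 ± 26.3 and 250 ± 18.7 CPM in diestrus. In the same comparison over both stages 5 of the 8 luteal markers were called higher in FL1 mice, and their part in the level of Hif1a was not tested.

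The list genes with the highest levels were Snx3 and Vps35 (uptake), which sort the transferrin receptor in endosomes, Pcbp1 and Heph (storage and export), Skp1a and Hif1a (regulation), Tmem14c and Alas1 (heme), and Fdx1 and Hspa9 (iron-sulfur clusters). Pcbp1, an iron chaperone that delivers to ferritin, ranged from 296 to 582 CPM over the 4 groups, and its log2 fold changes of -0.35 to 0.01 in the 4 comparisons of 5 mice each did not pass the test. Heph, a ferroxidase that works with ferroportin, lay at 341 ± 101.6 CPM in ctrl estrus and 168 ± 80.4 CPM in FL1 estrus (SD, n = 5), a log2 fold change of -1.03 (SE 0.30, adjusted p = 0.136, edgeR), and its adjusted p was 0.00443 without a filter on low counts and 0.0495 by DESeq2. Snx3 (log2 fold change -0.64 between the lines in estrus), Vps35, Skp1a, Tmem14c, Alas1 and Hspa9 did not pass the edgeR test in any comparison, while DESeq2 called Skp1a, a subunit of ubiquitin ligases, between stages in ctrl mice (log2 fold change -0.58, adjusted p = 0.0335).

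**Figure D5:**
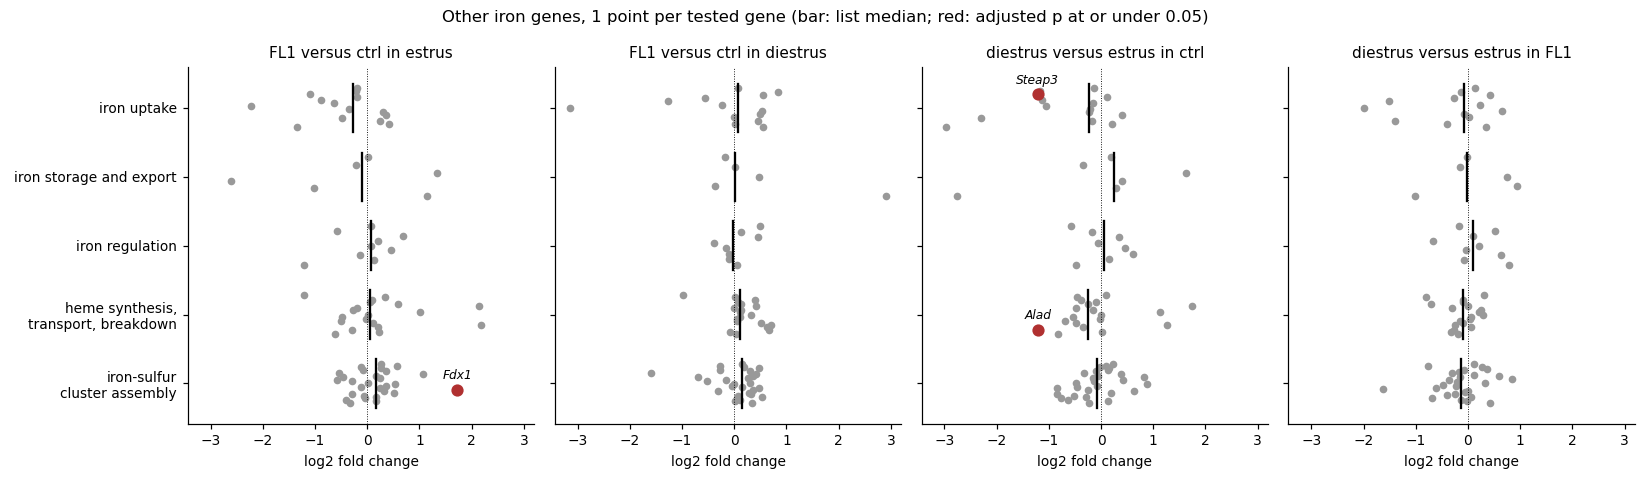
Log2 fold change of every tested gene of the 5 iron lists in the 4 comparisons of 5 against 5 mice, 1 point per gene, with the list median as a black bar and called genes in red. The called genes are Fdx1 (1.72), Steap3 (-1.21) and Alad (-1.21), and list medians lay between -0.28 and 0.24.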

How the data were processed

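GCs of 20 mice were sequenced with QuantSeq 3′ mRNA-Seq Fw libraries. The authors aligned trimmed reads with STAR to GRCm38 and deposited raw read counts per Ensembl gene. Reads matching several places and reads on no gene stand in separate rows, which were left out of library sizes. The strand setting of the counting is not given in the sources used here, so reads of overlapping genes on opposite strands may be mixed. RNA was extracted with TRIzol per the labels and with an RNeasy kit per the study's methods.

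Here gene symbols came from GENCODE M21 (55227 of 55487 identifiers matched). Counts were tested with edgeR 4.0.16 in R 4.3.3 (filterByExpr with a minimum count of 10, TMM, glmQLFTest, Benjamini-Hochberg adjustment over all genes tested, threshold 0.05), on the 10 samples of a comparison, or on all 20 with stage as a term or with the line by stage product. CPM used the TMM library sizes of all 20 samples, with a prior count of 2 on the log2 scale. The study's own test was DESeq2, which served as an alternative (1.42.0) beside RLE size factors, no filter on low counts, all samples in 1 fit, robust estimation, a replicate block and leaving out each sample. Standard errors were derived from the F statistic. Depth is the reads on genes given above, and limits for a count of 0 cover counting error only. Copies of the members were sought with BLAST+ 2.17.0+ over the last 500 nt of transcripts (90% identity over 100 nt). In simulated counts for the comparison of stages in ctrl mice (12118 genes), 69.1% of genes changed by 2 on the log2 scale and 17.6% of those changed by 1 were called.

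The members and lists were chosen with earlier results of these data known. Genes are named where they are members, where a list gene was called, where it had 1 of the 2 highest mean levels of its list, or where it was among the 5 genes most like Trf, Cybrd1 or Hmox1. Other genes named from the alternatives were chosen after their values were seen.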

Additional observations from a re-analysis of the deposited data

Results flagged for a closer look

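In 3 of the 40 sets of 5 mice (10 members in 4 groups), 1 sample stood apart from the other four by Dixon's criterion at the 95% level, which chance alone meets in about 1 of 20 sets. Cybrd1 was at 8.99 CPM in FL1 estrus 2, below the 24.5 to 32.4 CPM of the other samples of the group. Fth1 was at 2350 CPM in FL1 estrus 4, above 1558 to 1609 CPM in the others. Aco1 was at 30.0 CPM in FL1 diestrus 2, below 53.9 to 65.1 CPM in the others.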

How the results depend on the processing

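The call of Hmox1 between stages in ctrl mice held under DESeq2, RLE size factors, no filter on low counts, all 20 samples in 1 fit, robust estimation and the replicate block (adjusted p 0.00158 to 0.0307). Without the filter 2 members were called there, Tfrc being added, and leaving out 1 sample gave 0 to 1. Of the list genes, DESeq2 called 3 (line in estrus), 1 (line in diestrus), 6 (line over both stages), 5 (stage in ctrl) and 1 (stage in FL1), and no filter gave 3, 1, 6, 4 and 2. Robust estimation gave 0 for the line in estrus, and 1 fit of all 20 samples gave 1 for the stage in ctrl and 1 in FL1. With the replicate block 0 were called for the line in estrus and 0 for the stage in ctrl, and leaving out 1 sample gave 0 to 1, 1 to 3, 0 to 2 and 0 to 1 for the line in estrus, the line over both stages and the stage in ctrl and FL1. Over all genes DESeq2 called 425, 118, 438, 526 and 265 in these 5 comparisons, against 100, 32, 162, 175 and 29. No filter gave 373 for the line in estrus, 3.34 times the count in diestrus, 319 over both stages, and 348 and 299 for the stage in ctrl and FL1. The replicate block gave 58 for the line in estrus and 13 in diestrus, and 1 fit of all samples gave 65 for the stage in FL1. The causes were not tested.

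Directions turned for the differences given here, none of which had passed a test. With the replicate block Ftl1 over both stages was -0.043 and Aco1 between stages in FL1 was 0.041, and with copies of 95% identity or more Ftl1 in estrus was -0.041. Leaving out 1 sample gave, for FL1 against ctrl in estrus, -0.25 to 0.18 (Tfrc), -0.36 to 0.078 (Slc40a1) and -0.31 to 0.38 (Ftl1 with copies), and in diestrus -0.21 to 0.072 (Slc11a2), -0.13 to 0.17 (Fth1), -0.13 to 0.13 (Fth1 with its copy), -0.95 to 0.11 (Ftl1) and -0.024 to 0.15 (Ireb2). Over both stages it gave -0.25 to 0.40 (Ftl1), -0.0033 to 0.19 (Hmox1) and -0.0895 to 0.0077 (Ireb2), for the stage in ctrl -0.17 to 0.85 (Ftl1) and -0.032 to 0.21 (Aco1), for the stage in FL1 -0.40 to 0.19 (Aco1), and for the interaction -0.49 to 0.12 (Aco1) and -1.27 to 1.05 (Cybrd1).

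Samples with the same replicate number did not deviate together (correlations of -0.116 to 0.117 over 5 pairs in each comparison, with at most 1 sample closest to its own number), so the numbers were not taken to pair the mice. Ftl1 had 422 counts in all and Cybrd1 was at 0 in 4 libraries, so small differences of these genes may have been missed. The parts of depth and of the spread between mice in this were not tested.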
